A study of Mus musculus with 12 samples.

Results

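HP3 and HP4 are mouse embryonic stem (ES) cell lines of the same genotype, Rex1-/-, and the comparison made here asks how far the RNA of such lines differs when the genotype does not. The members are the arrays of the samples titled HP4 (n = 3) and HP3 (n = 3), 6 of the 12 arrays of the series. The study made Rex1-/- lines from Rex1+/- cells in which a puromycin resistance and EGFP cassette replaces the start of the Rex1 reading frame. It did so in 2 ways, by a high dose of puromycin on the Rex1+/- line RKPG9, which selects gene conversion of the other allele, and by a second vector with hygromycin resistance. Which of these gave HP3 and HP4 is not stated in the sources used here, so the cassette on the second allele is not known. All the lines descend from the feeder-free line E14tg2a grown with LIF, and cells with the first cassette still transcribe a truncated Rex1 joined to it. Each line is 1 clone, so a difference between them belongs to these clones. The other 6 arrays hold RKPG9 (n = 3) and wild-type EB5 (n = 3), whose levels are given only beside those of HP3 and HP4. Whether the 3 arrays of a line hold RNA of 3 cultures is not in the labels, so the p-values measure the array-to-array spread, and that can be technical.

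Rex1, whose gene is Zfp42, is a zinc finger protein related to Yy1 and a common marker of undifferentiated ES cells. ES cells grown with serum and LIF hold a network of transcription factors (Pou5f1, Sox2, Nanog, Esrrb, Klf4, Tfcp2l1) that keeps them undifferentiated, and ES cell lines are known to drift in imprinted genes. Among metabolic programmes, the amino acid starvation response acts through the kinase Gcn2, phosphorylation of eIF2alpha and translation of Atf4, a factor that with C/EBP partners binds a short element near the start of genes for amino acid synthesis, amino acid import and tRNA charging.

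Genes of this programme were among those that differed most between the lines. The element's core was searched as TGATGNAA, with N for any base, on both strands of the RefSeq windows of GRCm38.p6 that run from 250 bases before to 50 bases after each start site. It was found in 3.97% of 32851 windows and, counted per gene, in 4.51% of 27025 genes. Of the 13 measured genes of the programme's list that had a window, 3 had it, Asns, Aars and Trib3, and the rest did not. The list was made of genes of this programme, with earlier results of these data known. Its share thus describes the list and not a difference between the lines. Pck2, which is not on the list and was chosen after its values were seen, also had a match. Printed are the stretches before the start site of the list members Asns and Aars and of Pck2. All 3 genes fell in HP4, but Pck2 adds nothing to the counts or median of the list. The match is in capitals, in its reverse complement where it lay on the other strand, and each sequence is 5′ to 3′ on the strand of the gene.
Asns, chr6:7693210-7693302, minus strand: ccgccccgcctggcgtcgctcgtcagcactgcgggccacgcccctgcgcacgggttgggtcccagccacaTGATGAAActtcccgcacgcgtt
Aars, chr8:111033660-111033807, plus strand: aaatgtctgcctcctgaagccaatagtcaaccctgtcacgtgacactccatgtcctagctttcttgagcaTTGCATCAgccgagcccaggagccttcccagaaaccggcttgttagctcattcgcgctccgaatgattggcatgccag
Pck2, chr14:55540093-55540240, plus strand: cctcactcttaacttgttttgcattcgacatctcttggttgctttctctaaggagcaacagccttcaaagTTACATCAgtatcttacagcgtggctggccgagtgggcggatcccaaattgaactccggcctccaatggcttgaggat
The match printed began 23 bases before the start site in Asns, 112 before it in Aars and 103 before it in Pck2, and Aars had a further match that began 9 bases after its start site and is not printed. A match is a description of these letters and not evidence that a factor binds there.

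Each array held 20280 gene probes, with the RNA of the line in Cy3 and a reference RNA, pooled from mouse cell lines, in Cy5 and with no dye swap. Levels below are log2 ratios of the line to this reference, and a difference is HP4 minus HP3. One extraction session covered HP3, HP4 and RKPG9, and another EB5. The Cy3 channel was dimmer on the HP4 arrays. Among 1171 unsaturated probes whose background-subtracted Cy3 signal was 1000 to 3000 in HP3, the median ratio of HP4 to HP3 was 0.53 in Cy3 and 1.04 in Cy5. Between 300 and 1000 the median Cy3 ratio was 0.563, and between 50 and 100, close to background, it was 0.851. The loess step set the median difference of all probes to 0.0016, so a fall below means that Cy3 dropped more than in other probes of like brightness, and a rise often that it dropped less. Cy3 was saturated on 21 to 28 probes of each HP3 array and on 0 of each HP4 array.

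The spread of ratios was also narrower in HP4. A straight line through all probes had a slope of -0.09 for the difference on the mean ratio, so that genes far above the reference tended to lie lower in HP4 and genes far below it higher. The 256 probes with a mean ratio over 2 had a median difference of -0.28, and the 332 probes under -2 a median of 0.28. With the signals as processed by the scanner software the slope was 0.00082, but the medians of these bands remained at -0.19 and 0.07. For this reason the main results and those that turn or lose their call are given also with the ratio range of the arrays equalized, an added setting in which each array's ratios were rescaled to the mean of all 12 arrays and the slope was -0.00031. Whether the narrower range is in the RNA or in the dimmer Cy3 channel cannot be told apart.

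**Figure D1:**
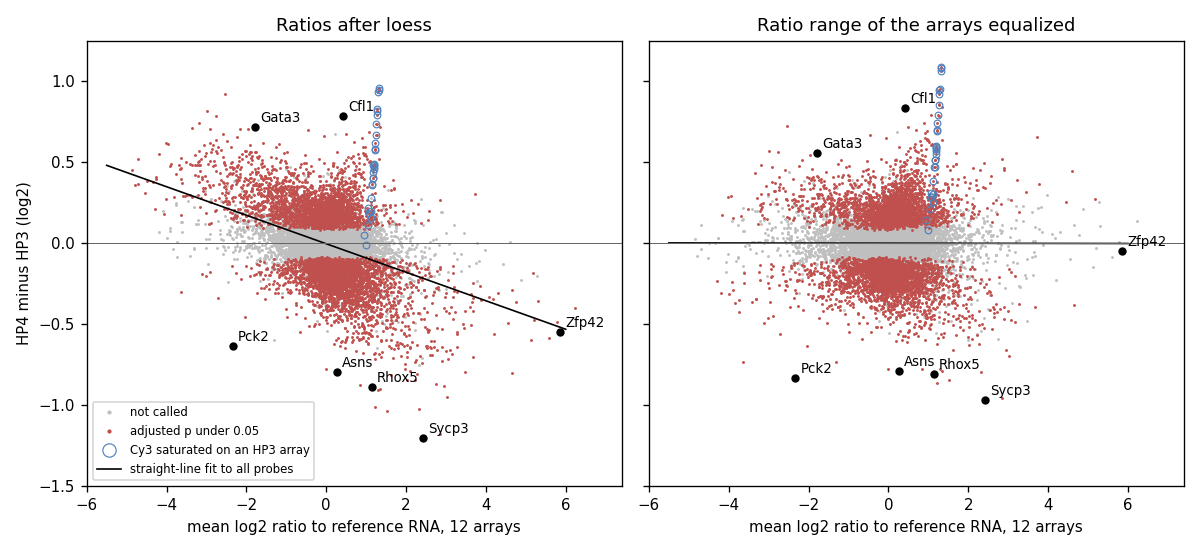
Difference of HP4 and HP3 (log2, vertical axis) against the mean log2 ratio to the reference over 12 arrays (horizontal axis), 1 point per probe, with the loess ratios on the left and with equalized ratio ranges on the right. The fitted line falls with a slope of -0.09 on the left and lies flat on the right, where Zfp42 moves from -0.55 to -0.05 while Asns stays at -0.79; open circles are probes whose Cy3 was saturated on an HP3 array, which form the upright streak of rises.

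In a limma fit of all 12 arrays, 2778 of 20273 probes were higher in HP4 at an adjusted p under 0.05 (13.7%) and 2990 were lower (14.7%). Of the 5768 probes called, 97.5% differed by less than 1.5-fold and 67.8% by less than 1.2-fold on this scale, on which the offset of 50 shrinks the ratios of dim probes. Over 1.5-fold were 143 of them, against 1180 of 6383 called with the processed signals and 747 of 5690 with an offset of 0. The median size of the difference over all probes was 0.09, and the median SD between arrays was 0.05 in HP3 and 0.06 in HP4. The 3 values of HP4 lay wholly above or below the 3 of HP3 in 8520 of 19965 probes that were usable on all 6 arrays (42.7%). Pearson's r across probes was 0.989 to 0.991 between HP3 arrays, 0.980 to 0.989 between HP4 arrays and 0.957 to 0.978 between the lines, and HP4 replicate 1 was the array of HP4 farthest from both the other HP4 arrays and HP3.

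More than 1.5-fold differences were called for 45 probes that were higher and 98 that were lower. That balance turned with equalized ranges, to 42 and 28, and in the Cy3 channel alone, to 43 and 33. It was 31 and 55 without HP4 replicate 1 and 75 and 112 without HP3 replicate 1. Of the 98, 77 had a mean ratio over 1 and 88 were also called, at any size, with equalized ranges. Of the 45, 9 had a saturated Cy3 spot on an HP3 array and 24 of the others lay below a mean ratio of -1, which left 12. More than 2-fold, 5 probes were lower (0.0247%) and 0 were higher by limma, nor was any more than 2-fold higher at an unadjusted p under 0.05 (0 probes), but other settings called 0 to 86 higher and 0 to 191 lower. Named among the 5 were Sycp3, Tcstv1 and Mal, a proteolipid of membrane rafts. Mal was 2.78 and 2.91 on its 2 usable HP3 arrays and 1.27, 2.06 and 2.13 in HP4, where replicate 1 was lowest, and its difference was -1.02. Just inside that bound lay Tcstv1 at -1.01, and just outside it Tfap2c at -0.95.

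Zfp42, the targeted gene, was at 6.12, 5.94 and 5.91 in HP3 and at 5.66, 5.42 and 5.24 in HP4. All 3 HP4 values were below those of HP3, a difference of -0.55 ± 0.09 (SE; adjusted p = 0.00096 in limma), and a second probe gave -0.49. RKPG9 was at 6.02 ± 0.02 (SD, n = 3) and EB5 at 5.98 ± 0.01. The level thus does not separate Rex1-/- from wild-type cells here, and as the position of these probes relative to the replaced sequence was not analysed here, it checks no label. With equalized ranges the difference was -0.05 (adjusted p = 0.85 in limma on that scale).

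Genes of the amino acid starvation response were lower in HP4. The list had 16 measured genes, of which 10 fell, 0 rose and 6 missed the threshold, and its median difference was -0.31. Over the brightest probe of each of 6841 named genes, 18.3% were higher and 18.6% lower, with a median of 0.001. The list stayed at -0.32 with equalized ranges, at which 12 fell and 0 rose, and at -0.37 with the processed signals. With equalized ranges 16.7% of all named genes were higher and 17.9% lower. The counts of every list below stand beside these shares, and counts near them are no result about a list.

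Asns makes asparagine from aspartate and glutamine. It was at 0.33, 0.32 and 0.33 in HP3 and at -0.43, -0.49 and -0.48 in HP4, and the arrays of each line lay close together. It fell by 0.79 ± 0.04 (SE; 1.73-fold, adjusted p = 5.4e-07 in limma), and the fall was called under all 21 alternatives, between -1.21 and -0.56. Its Cy3 signal went from 1276 to 1428 in HP3 to 685 to 724 in HP4, while Cy5 stayed at 2532 to 2561 and 2543 to 2649.

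Among the measured genes of the list that make or use serine, Psat1 and Psph fell. Psat1, the aminotransferase of serine synthesis, was at 0.26, 0.22 and 0.21 in HP3 and at -0.49, -0.61 and -0.55 in HP4, a fall of 0.78 ± 0.04 (adjusted p = 1.2e-06 in limma). Psph, the phosphatase of the last step, was at -0.08, -0.03 and -0.07 in HP3 and at -0.56, -0.58 and -0.55 in HP4, a fall of 0.50 ± 0.03. Both falls were called under all 21 alternatives. Shmt2, which passes the one-carbon unit of serine to folate in mitochondria, was at -0.12 and did not pass, while a second Shmt2 probe rose by 0.17.

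Genes that charge tRNAs fell in part. Sars, Aars and Nars, the ligases for serine, alanine and asparagine, fell by 0.48, 0.46 and 0.37, whereas Wars, the ligase for tryptophan, was at 0.02 and did not pass. A second probe gave -0.07 for Sars and -0.11 for Aars, smaller than the brightest probe in both. Slc3a2, the heavy chain of amino acid exchangers, fell by 0.30, and the arginine and lysine carrier Slc7a3, at -0.29, did not pass.

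Among the regulators, Atf4 itself fell by 0.31 and Trib3, a pseudokinase that it induces, by 0.46. Trib3 was at -0.26, -0.25 and -0.27 in HP3 and at -0.75, -0.72 and -0.69 in HP4. Cebpb, a C/EBP partner, was called at -0.30 on 2 usable HP3 arrays and 1 usable HP4 array, and turned to 0.17 without background subtraction. Cebpg, Ddit4 and the proline enzyme Aldh18a1 were at -0.04, -0.02 and -0.10 and did not pass.

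Pck2, the mitochondrial form of the enzyme that makes phosphoenolpyruvate, was chosen after its values were seen. It was at -2.10, -2.16 and -2.12 in HP3 and at -2.66, -2.84 and -2.78 in HP4, a fall of 0.63 ± 0.05 (adjusted p = 2.2e-05 in limma). It was the 1 probe of the 98 lower by more than 1.5-fold that lay below a mean ratio of -1, against the slope of all probes, and with equalized ranges its difference was -0.83. Without background subtraction it was -0.10 and did not pass.

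**Figure D2:**
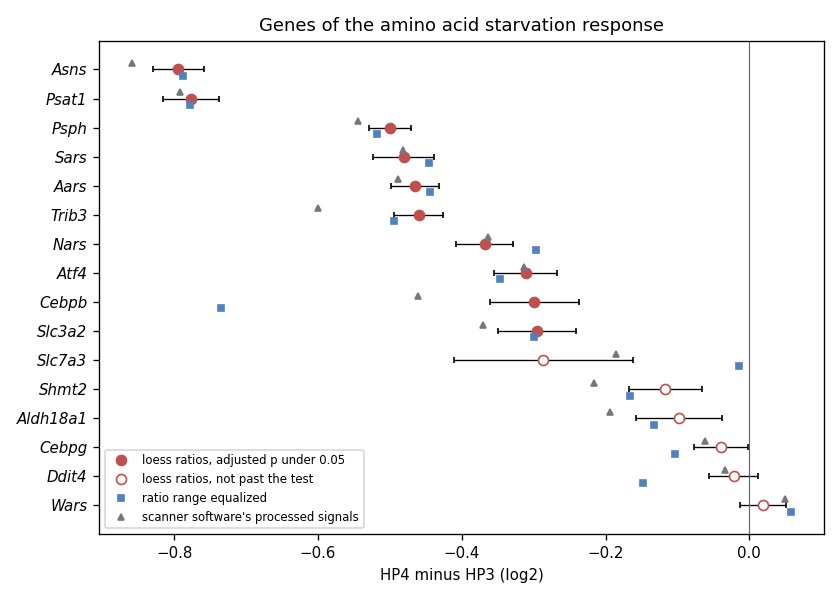
Difference of HP4 and HP3 (log2) for the 16 measured genes of the amino acid starvation list, as loess ratios with the SE of the limma fit (circles, filled where called), with equalized ratio ranges (squares) and with processed signals (triangles). Asns and Psat1 lie near -0.8 on all 3 scales, and Wars lies close to 0.

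The Rex1+/- line and the wild-type line were placed differently from gene to gene. Asns was at 0.36 ± 0.05 in RKPG9 and 0.82 ± 0.04 in EB5 (SD, n = 3 each), so that the RKPG9 level was close to that of HP3. Trib3 was at -0.99 ± 0.04 in RKPG9, below both Rex1-/- lines, and at -0.18 ± 0.04 in EB5. Psat1 lay between the lines in RKPG9, at -0.08 ± 0.06, and Pck2 in RKPG9, at -2.72 ± 0.06, was close to HP4. EB5 was read in another session, so its levels cannot be told apart from that session.

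The largest falls among named genes usable on all HP3 and HP4 arrays were those of Sycp3, Tcstv1, Tfap2c and Rhox5, known from germ cells, early embryos and trophoblast. Only called genes whose HP4 and HP3 arrays did not overlap were ranked, here and for the rises. Lack of overlap is thus no result for them. The 15 largest falls ran from 1.57-fold to 2.3-fold, and all 15 were also called with equalized ranges, 14 with processed signals and 9 in the Cy3 channel alone. HP3 was over a ratio of 1 in 13 of them.

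Sycp3, a protein of the synaptonemal complex of meiosis, had the largest of these differences. It was at 3.01, 3.50 and 3.18 in HP3 and at 1.67, 2.16 and 2.25 in HP4. The fall was 1.20 ± 0.14 (SE; adjusted p = 0.0002 in limma), and it was -0.97 with equalized ranges. Its Cy5 spot was well above background on 0 of the 6 arrays, so the size of this ratio rests on a reference signal at background. Its Cy3 signal was 687 to 789 in HP3 and 514 to 558 in HP4, and in the Cy3 channel alone the difference was -0.46. RKPG9 and EB5, at 2.08 ± 0.08 and 2.32 ± 0.08, lay nearer to HP4.

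Of 14 measured germ cell genes 6 fell and 0 rose, with a median of -0.13 that was 0.03 under median centring. Kit, the receptor of stem cell factor, was at 1.38, 1.59 and 1.59 in HP3 and at 0.97, 0.94 and 0.83 in HP4, a fall of 0.61. Dazl, an RNA-binding protein of germ cells, fell by 0.32, but the change was -0.05 with the processed signals and turned to 0.22 under median centring.

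Tcstv1, a gene of the 2-cell embryo that marks a rare state of ES cells, was at 1.93, 2.20 and 2.06 in HP3 and at 1.00, 1.08 and 1.08 in HP4. It fell by 1.01 ± 0.06 (2.01-fold, adjusted p = 4.8e-06 in limma) and by 0.86 with equalized ranges. In RKPG9 it was at -0.20 ± 0.06, below both Rex1-/- lines, and in EB5 at 1.96 ± 0.07, near HP3. The other 2 measured genes of that list, Usp17la and Eif1ad, were called at -0.35 and -0.33, but each lost the call without single arrays and turned to 0.01 and 0.21 under median centring. In a bulk sample, fewer cells in such a state and less RNA per cell cannot be told apart.

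Tfap2c, a transcription factor of trophoblast and germ cells that is also present in ES cells, was at 3.07, 3.32 and 3.35 in HP3 and at 2.36, 2.32 and 2.21 in HP4. It fell by 0.95 ± 0.07 (1.93-fold, adjusted p = 2.1e-05 in limma), and a second probe fell by 0.60. RKPG9 at 3.41 ± 0.04 and EB5 at 3.10 ± 0.10 were both close to HP3.

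Rhox5 and Rhox6, homeobox genes of a cluster on the X chromosome, were both lower in HP4. Rhox5 was at 1.27, 1.28 and 1.33 in HP3 and at 0.42, 0.38 and 0.41 in HP4, a fall of 0.89 ± 0.03 (adjusted p = 5e-07 in limma). Rhox6 was at 1.62, 1.89 and 1.85 in HP3 and at 0.99, 1.28 and 1.27 in HP4, a fall of 0.61 ± 0.08. Rhox4b was not well above background in Cy3 on any HP3 array. The lines were ordered differently for the 2 genes that fell, since RKPG9 was at 0.52 ± 0.03 for Rhox5, near HP4, and at 2.71 ± 0.03 for Rhox6, above both. The Y-linked Ddx3y and Kdm5d were at 0.02 and 0.04 and did not pass, and Eif2s3y was called at -0.15 but was at 0.06 with equalized ranges. Xist, the RNA that silences an X chromosome, rose by 0.28 at a level below the reference.

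The other large falls were of mixed function. Suv39h1, a histone H3 lysine 9 methyltransferase, was at 2.44, 2.51 and 2.40 in HP3 and at 1.41, 1.83 and 1.70 in HP4. Its Cy5 was well above background on 1 HP3 array and 2 HP4 arrays, and in the Cy3 channel alone it was at -0.20 and did not pass. A second Suv39h1 probe of like brightness was at -0.01. That probe was well above background in Cy5 on all 3 arrays of each line, and in Cy3 on 3 HP3 and 2 HP4 arrays. Ovol2, a zinc finger repressor of epithelia, fell by 0.74, Rpp25, a subunit of RNase P, by 0.72, Mageb16, a MAGE family gene, by 0.70 and the p38 kinase Mapk13 by 0.65. In the Cy3 channel alone these 4 were at -0.10, -0.40, -0.13 and -0.15. The Cy5 spot of Ovol2 was well above background on 1 HP3 array and on 3 HP4 arrays.

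**Figure D3:**
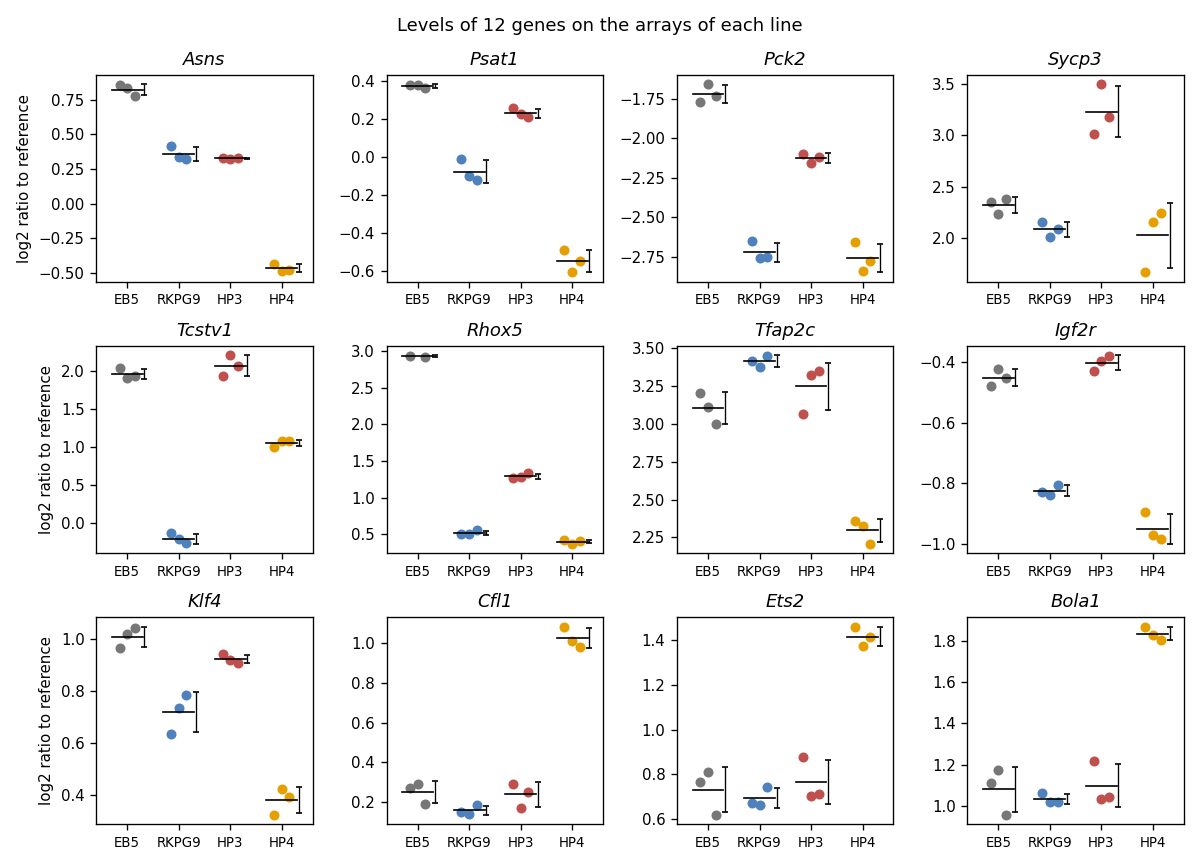
Log2 ratio to the reference RNA (vertical axes, each with its own range) of 12 genes on the 3 arrays of each line, with points for arrays, lines for means and bars for the SD; Rhox5 had 2 usable EB5 arrays. In every panel the 3 HP4 arrays lie apart from the 3 HP3 arrays, with Asns for example at -0.47 in HP4 and 0.33 in HP3, while RKPG9 is near HP3 for some genes and near HP4 for others. Most of these genes were picked from the largest rises and falls, which were ranked only among genes without overlap.

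Imprinted genes, expressed from the copy of one parent, did not move one way. Among 21 measured, 2 rose, 6 fell and 13 missed the threshold, and the median was -0.07, or -0.01 with equalized ranges. Igf2r, the receptor that clears Igf2, was at -0.43, -0.40 and -0.38 in HP3 and at -0.89, -0.97 and -0.98 in HP4, a fall of 0.55 ± 0.03 (adjusted p = 4.4e-06 in limma). Grb10, an adaptor that restrains growth signalling, fell by 0.39 ± 0.04. These 2 falls were called under all 21 alternatives. RKPG9 lay near HP4 for both, at -0.82 ± 0.02 and -0.05 ± 0.05. The non-coding Meg3 was called at -0.28 by its brightest probe and was at 0.003 with equalized ranges, and 3 further probes of it gave -0.72, -0.33 and -0.02. The cell cycle inhibitor Cdkn1c, called at -0.33, was at -0.09 with equalized ranges.

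Pluripotency genes were lower in HP4 as a group, by an amount that depended on the scale. The list had 29 measured genes, of which 21 fell, 0 rose and 8 missed the threshold, and its median was -0.31. With equalized ranges 8 fell and 1 rose, with a median of -0.05. The median was -0.24 with the processed signals and -0.13 in the Cy3 channel alone. Equalizing takes out any difference that follows the mean ratio, whether or not it is in the RNA. The median mean ratio of these genes was 2.24, where most probes of any kind were lower in HP4. All 7 measured markers of undifferentiated ES cells were well above background on every array of both lines. Of these 5 fell and 0 rose, with a mean of 3.17 to 3.37 in HP3 and 2.80 to 3.02 in HP4. Their median difference was -0.34, or -0.03 with equalized ranges and -0.21 with the processed signals.

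The genes that also fell with equalized ranges included Tfcp2l1, Klf4 and Klf5, factors that act downstream of LIF. Tfcp2l1 was at 3.09, 3.06 and 3.11 in HP3 and at 2.41, 2.43 and 2.43 in HP4, a fall of 0.66 ± 0.03 (adjusted p = 2.4e-06 in limma) and of 0.42 with equalized ranges. A second, dimmer probe of Tfcp2l1 was at -0.03. Klf4 was at 0.94, 0.92 and 0.91 in HP3 and at 0.32, 0.42 and 0.39 in HP4, a fall of 0.54 ± 0.04 that was 0.48 with equalized ranges. Klf5 was at 1.90, 2.02 and 1.96 in HP3 and at 1.42, 1.42 and 1.43 in HP4, a fall of 0.54 that was 0.38 with equalized ranges.

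For the others the call or the size depended on the scale. Esrrb, an orphan nuclear receptor, fell by 0.55 and was at -0.26 with equalized ranges (adjusted p = 0.054 in limma on that scale), and a second probe was at 0.15 and did not pass. Dppa3 and Fbxo15 fell by 0.56 and 0.51 and were at -0.23 and -0.20. Nanog, called at -0.24, was at -0.03. Pou5f1 was at 4.62, 4.44 and 4.21 in HP3 and at 4.19, 4.18 and 3.99 in HP4, so that the lines lay apart by a narrow gap, and its difference of -0.31 (adjusted p = 0.035 in limma) turned to 0.07 with equalized ranges and lost the call without any 1 of 5 arrays. Dppa5a, at -0.49, and Fgf4, at -0.08, did not pass.

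Among further genes that the study names, Sox15, a relative of Sox2, fell by 0.44, and Yy1, at -0.03, did not pass. Mylpf, a light chain of muscle myosin, fell by 0.30, and by 0.16 with equalized ranges. Dusp14, a phosphatase of MAP kinases, rose by 0.31, and a second probe at 0.16 did not pass. The first probe was at 0.24 with the processed signals and 0.07 in the Cy3 channel alone, and passed in neither. Its Cy3 signal was dim, at 481 to 496 in HP3 and 463 to 466 in HP4. Lgals1, a galectin, was at 0.08 and did not pass, and it turned negative with equalized ranges and under median centring. Its Cy5 signal was 62895 to 65517 in HP3 and 60531 to 65517 in HP4, close to or at saturation. Myc rose by 0.15.

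Fewer rises than falls stood clear of the background and of saturation. The 15 largest rises ran from 1.48-fold to 1.72-fold, and HP3 was under a ratio of -1.5 in 10 of them. The background-subtracted Cy3 signal was higher in HP4 than in HP3 for 3 of the 15, with ratios of 0.71 to 1.14 over the 15, whereas the 15 largest falls had ratios of 0.272 to 0.597.

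Cfl1, cofilin, which severs actin filaments, was at 0.29, 0.17 and 0.25 in HP3 and at 1.08, 1.01 and 0.98 in HP4. It rose by 0.79 ± 0.04 (SE; 1.72-fold, adjusted p = 1.9e-06 in limma) and was called under all 21 alternatives. Its Cy3 signal was 3980 to 6268 in HP3 and 3230 to 4716 in HP4, so that it dropped less than that of most probes as bright. RKPG9 at 0.16 ± 0.02 and EB5 at 0.25 ± 0.05 were at the level of HP3. A second probe of Cfl1 was at -0.12 and did not pass in the main fit. It was called lower, against the first probe, at -0.14 with equalized ranges and at -0.50 with the processed signals.

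Bola1, a mitochondrial protein of redox balance, and Ets2, an ETS transcription factor, rose by 0.74 and 0.65. Both were called under all 21 alternatives, but the Cy3 signal of Bola1 was 656 to 694 on all 12 arrays and that of Ets2 614 to 685, whatever the line. A second probe of Ets2 was at 0.02. The Cy5 spot of Pabpc1, the poly(A) binding protein, was saturated on all 6 arrays, and the ribosomal genes Rps23 and Rps12 were saturated in both channels on all HP3 arrays, so no fold is given for these, of which Pabpc1 and Rps23 are among the 15.

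Rises among genes low in ES cells rested on Cy3 spots little above background. Gata3, a trophoblast factor, was at -2.14, -2.19 and -2.19 in HP3 and at -1.53, -1.29 and -1.55 in HP4, a rise of 0.72 ± 0.06 (adjusted p = 4e-05 in limma) and of 0.56 with equalized ranges. Its Cy3 signal was 469 to 474 in HP3 and 464 to 480 in HP4, over a background of about 400 (404 to 406 in HP3 and 395 to 398 in HP4). Pik3r1 and Mbnl1, a PI3-kinase subunit and a splicing regulator, rose by 0.71 and 0.62 on equally dim spots, and by 0.47 and 0.38 with equalized ranges. A second probe of each did not pass, that of Pik3r1 not well above background on any HP4 array and that of Mbnl1 on no array of either line.

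The trophoblast list as a whole did not move one way. Of 15 measured genes 5 rose and 2 fell, with a median of 6.3e-05. Those that rose were Gata3, Ets2, Gata2 at 0.43, Prl2c2 at 0.46 and Id2, and those that fell Tfap2c and Fgfr2, the latter at -0.18. Of the trophoblast factors Cdx2 was at -0.10 and did not pass.

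Targets of BMP signalling were higher in part. Id2, an inhibitor of basic helix-loop-helix factors, was at -1.66, -1.66 and -1.67 in HP3 and at -1.16, -1.11 and -1.13 in HP4, a rise of 0.53 ± 0.03 (adjusted p = 2.2e-06 in limma), and of 0.41 with equalized ranges. RKPG9, at -1.12 ± 0.01, was at the level of HP4, and EB5, at -1.63 ± 0.03, at that of HP3. Id3 was at -1.64, -1.67 and -1.66 in HP3 and at -1.22, -1.23 and -1.31 in HP4, a rise of 0.41. Id1 was not well above background in Cy3 on any HP3 array, so no fold is given for it. Of 14 measured Nodal, BMP and Wnt targets 5 rose and 1 fell, Tcf7 at -0.31, with a median of 0.03. Ptch1, the hedgehog receptor, fell by 0.52 and by 0.31 with equalized ranges, and was 1 of 2 called among 10 hedgehog genes, the other being Gas1 at 0.26, or 0.01 with equalized ranges, at which it did not pass. Dusp4, a phosphatase of MAP kinases, fell by 0.39 while 9 of 20 genes of the FGF and immediate early list rose and 2 fell, or 5 and 2 with equalized ranges.

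Genes of glycolysis and hypoxia tended to be higher in HP4. Of 20 measured genes 11 rose and 1 fell, with a median of 0.20. This was 0.14 with equalized ranges, 0.15 with the processed signals, 0.04 in the Cy3 channel alone and -0.27 under median centring. The median mean ratio of these genes was -1.13. Among the 953 probes of any kind with a mean ratio of -2 to -1, 397 were called higher and 74 lower. Tpi1, the triose phosphate isomerase, was at -1.42, -1.47 and -1.44 in HP3 and at -1.08, -1.13 and -1.09 in HP4, a rise of 0.34. Aldoa, Gpi1 and Pgk1, enzymes of the same pathway, rose by 0.27, 0.29 and 0.33, and all 4 turned negative under median centring. The Cy5 signal of Pgk1 was 61702 to 65517 in HP3 and 60094 to 65517 in HP4, close to or at saturation, so the size of its rise is uncertain. A second probe of Gpi1 was at 0.02 and did not pass. With equalized ranges Tpi1, Aldoa and Gpi1 rose by 0.23, 0.24 and 0.14, and Pgk1, at 0.22, did not pass. Pgk1 lost its call without any 1 of 4 arrays and Aldoa without HP3 replicate 2 or HP4 replicate 1. Egln3 and Ier3, which respond to hypoxia and stress, rose by 0.46 and 0.59, and by 0.27 and 0.36 with equalized ranges. Slc2a3, a glucose transporter high in ES cells, fell by 0.47, and by 0.20 with equalized ranges. Vegfa at -0.03 did not pass.

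Interferon response and antigen presentation genes were higher on the loess scale, with 12 of 20 up, 0 down and a median of 0.20. Their median mean ratio was -1.27. With equalized ranges 8 rose and 4 fell, with a median of 0.11. The median was 0.03 in the Cy3 channel alone and -0.06 under median centring. Usp18, which removes Isg15 from proteins, rose by 0.60 and Isg15 itself by 0.54, but Isg15 was well above background in Cy3 on 1 HP3 array and 2 HP4 arrays. In the Cy3 channel alone Usp18, Isg15 and the proteasome subunit Psmb8 were at 0.11, 0.05 and 0.08 and did not pass. Irf1, a factor of the response that lay near the reference level, was at 0.29, 0.30 and 0.28 in HP3 and at 0.52, 0.52 and 0.50 in HP4, a rise of 0.23.

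Mesenchymal and contractile genes lay far below the reference, with a median mean ratio of -1.94. Of 34 measured genes 19 rose and 2 fell, with a median of 0.21. With equalized ranges 8 rose and 7 fell, with a median of 0.03, and the median was -0.04 in the Cy3 channel alone. Anxa1 and Cav1, a membrane-binding annexin and a caveolin, rose by 0.55 and 0.45 and were at 0.17 and 0.03 with equalized ranges. The markers of embryonic fibroblasts, were 3 measured genes that all rose. Their mean log2 ratio was -3.57 to -3.47 over the HP3 arrays and -3.28 to -3.17 over those of HP4, and their median difference was 0.36, or 0.0003 with equalized ranges. Markers of blood cells were 2 measured genes that both rose, with a mean of -2.60 to -2.46 in HP3 and -2.18 to -1.95 in HP4. Only 1 of these 2 was well above background in Cy3 on every HP4 array. The wider list of blood and immune cells did not rise as a whole. Of its 11 measured genes 4 rose and 2 fell, with a median of -0.03, or 2 and 4 with equalized ranges. In the Cy3 channel alone the median of that list was -0.20. Of 4 measured trophoblast markers 2 rose, with a mean of -1.24 to -1.17 in HP3 and -0.95 to -0.85 in HP4. Of 7 measured markers of extraembryonic endoderm 2 rose, with a mean of -0.43 to -0.34 in HP3 and -0.32 to -0.23 in HP4, and the defining marker Gata4 was not well above background on any array of either line. Of the markers of mesoderm and neuroectoderm, 3 and 1 were measured and 0 were called. The part of such cells in the rises was not tested.

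The epithelial keratin Krt18, far below the reference in both lines, rose by 0.50, and by 0.25 with equalized ranges, while the tight junction protein Cldn4 fell by 0.64, and by 0.37. Of 19 genes of simple epithelium 4 rose and 4 fell, beside 18.3% and 18.6% of all named genes, or 7 and 2 with equalized ranges. The PDGF receptor Pdgfra, of primitive endoderm, rose by 0.57 from a mean ratio of -2.85, and was at 0.04 in the Cy3 channel alone. Of 19 genes of extraembryonic endoderm 7 rose and 1 fell, with a median of 0.07, or 4 and 1 with equalized ranges.

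Polycomb genes, which keep developmental genes silent, were 5 up and 9 down among 22, with a median of -0.05. With equalized ranges the counts turned to 6 up and 3 down, with a median of -0.0047. Jarid2, a partner of the complex that is high in ES cells, fell by 0.42 and by 0.16 with equalized ranges. Of 16 homeobox and other polycomb target genes 4 rose and 1 fell, with Hoxa9 up by 0.30, by 0.30 with equalized ranges and by 0.67 with the processed signals. The Cy3 signal of Hoxa9 was little above background, at 469 to 487 in HP3 and 468 to 473 in HP4, and at 468 to 491 over all arrays whatever the line.

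Of 53 genes of the mitochondrial respiratory chain, 7 rose and 13 fell, with a median of -0.06, and with equalized ranges 5 rose and 20 fell. Of all named genes 18.3% were higher and 18.6% lower, or 16.7% and 17.9% with equalized ranges. Ndufs4, a subunit of complex I, was at -0.12, -0.04 and -0.09 in HP3 and at -0.57, -0.61 and -0.57 in HP4, a fall of 0.50 ± 0.03 (adjusted p = 7.6e-06 in limma) that was called under all 21 alternatives. Uqcrh, of complex III, fell by 0.28, and Cyc1, the cytochrome of the same complex, rose by 0.32 but turned to -0.29 under median centring. The superoxide dismutase of mitochondria, Sod2, fell by 0.31.

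Genes of the cell cycle and DNA replication were 4 up and 9 down among 38, with a median of -0.01, and the counts turned to 9 up and 4 down with equalized ranges, with a median of 0.05. The replication factors Mcm5 and Gins1 fell on both scales, by 0.36 and 0.30 and, with equalized ranges, by 0.26 and 0.24. Cytosolic ribosomal proteins were 10 up and 7 down among 51, or 10 and 6 with equalized ranges, with a median of 0.02, and 3 of them were saturated in both channels on all HP3 arrays. Of all named genes 18.3% were higher and 18.6% lower, so these counts are near the shares over all genes. Sterol and fatty acid synthesis was 7 up and 3 down among 23, and turned to 4 up and 6 down with equalized ranges. Nsdhl, an enzyme of cholesterol synthesis, rose by 0.34 by its brightest probe and was at -0.09 by a second, which did not pass. That second probe was called lower at -0.12 with equalized ranges and at -0.47 with the processed signals. Reference genes were 4 up and 0 down among 12, with a median of 0.03.

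**Figure D4:**
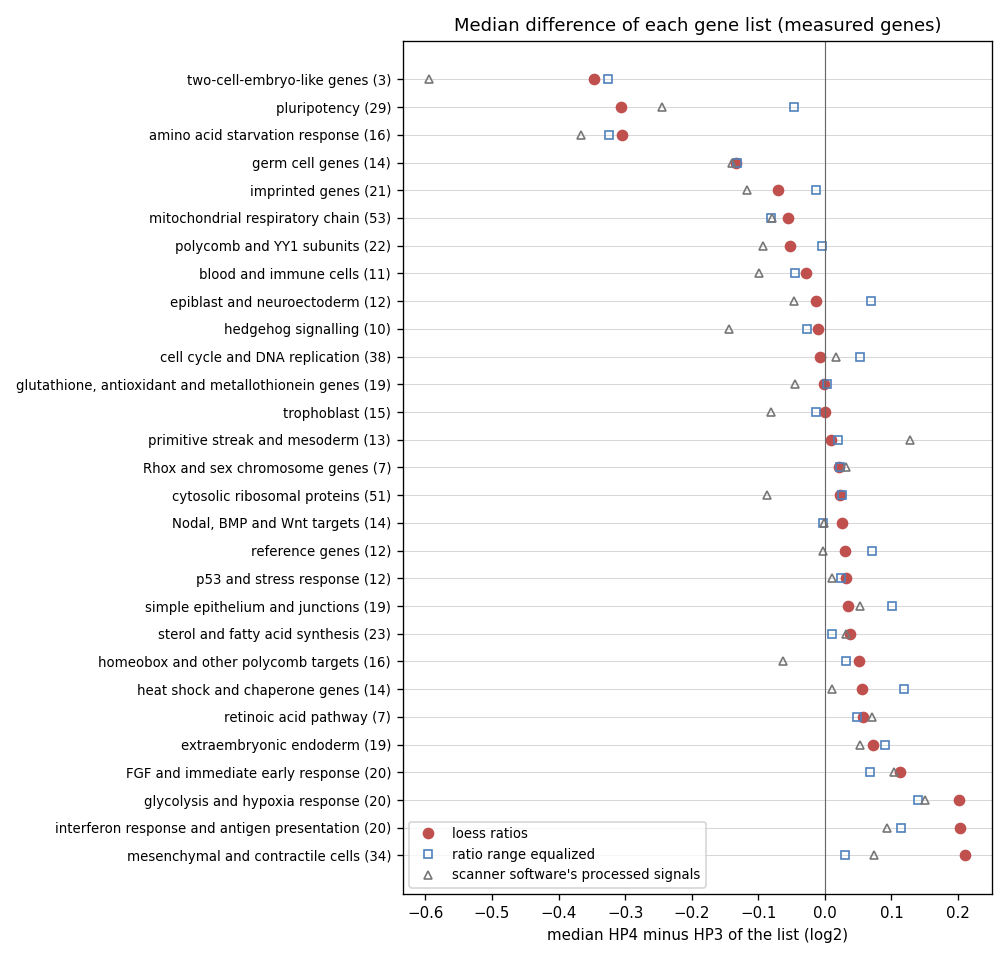
Median difference of HP4 and HP3 (log2, horizontal axis) of the 29 gene lists, with the number of measured genes in brackets, as loess ratios (filled circles), with equalized ratio ranges (squares) and with processed signals (triangles). The amino acid starvation list stays between -0.31 and -0.37 on the 3 scales, while the pluripotency list moves from -0.31 to -0.05 when the ranges are equalized.

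No chromosome stood apart as a whole. The median difference over the named genes of each of the 20 chromosomes, with 158 to 549 genes each, ran from -0.02 to 0.03, and from -0.02 to 0.01 with equalized ranges. These medians are a description of the lines' RNA and give no chromosome counts.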

How the data were processed

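The 12 Agilent 2-colour arrays, 3 for each of 4 ES cell lines, were read with Agilent Feature Extraction 7.5.1. The intensities deposited by the authors are mean spot and median local background signals, not subtracted; processed signals, corrected by that software, are deposited too. The table deposited by the authors holds log10 levels, which equal minus the deposited log10 ratio of Cy5 over Cy3 plus a level per probe, within 0.01 for 93.8 to 95.9% of values per array, uncentred, with column medians of 2.87 or 2.88.

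Signals were corrected by normexp (offset 50) and loess, without control spots or spots the software marked as outliers, and averaged per probe. The log2 ratios, computed from the deposited intensities, were fitted in limma 3.58.1 (R 4.3.3) over all 12 arrays, with 8 residual and 3.41 prior degrees of freedom and Benjamini-Hochberg adjustment over all probes. Adjusted p and SE are from this fit, unless the text says that the ranges were equalized. A probe was called at an adjusted p under 0.05. Of 20280 probes, 8824 had a current symbol by RefSeq (GRCm38.p6), and the brightest probe stood for a gene.

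Named genes were the 15 largest rises and falls, up to 4 called genes of each of 29 lists, and genes the study names. The rises and falls were ranked among called genes without overlap between the lines. These had to be well above background in Cy3 on every array of HP3, of HP4 or of both. Further genes in the text are list members or others chosen after their values were seen. The members and lists were chosen with earlier results of these data known. A list is described by counts and its median only. Scripts (Python 3.11.15, pandas 2.3.3, numpy 2.4.6, matplotlib 3.10.9) were tested on simulated data. The number of arrays limits the precision.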

Additional observations from a re-analysis of the deposited data

How the results depend on the processing

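Counts of probes higher and lower (2778 and 2990) moved by over 1.5 times with median centring, to 6898 and 7382, and in the Cy3 channel alone, to 1032 and 952. Median centring leaves the dye difference that varies with brightness, with medians of 0.36 over the 5069 dimmest and -0.41 over the 5068 brightest probes, so bright lists move down together (ribosomal proteins to -0.61, reference genes to -0.35). More than 2-fold, 0 were higher and 5 lower, against 85 and 191 with processed signals, 86 and 190 in the authors' table, 27 and 95 when the normexp offset was 0, 5 and 2 when no background was subtracted, and 3 and 0 with equalized ranges, which were added after seeing the data. The lower count was 26 with median centring, 0 in the Cy3 channel alone, and 3 with dim probes left out or with array weights. Leaving out 1 array gave 2012 to 2485 higher and 2156 to 2661 lower, with 0 to 3 and 2 to 7 past 2-fold (2 lower without HP4 replicate 1, and 3 higher and 7 lower without HP3 replicate 1). Same-numbered arrays of the lines had deviations that correlated at 0.202, 0.126 and 0.0863, so the numbers were not taken as pairs; with the replicate block 2760 were higher and 2992 lower, with 0 and 4 past 2-fold.

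Of 1632 values of 78 genes under 21 alternatives, 1496 kept their direction and side of the threshold, 113 lost the call, 8 gained one and 15 turned. Under median centring Usp17la was 0.0096, Eif1ad 0.21, Dazl 0.22, Myc -0.0297, Lgals1 -0.48, Pgk1 -0.30, Tpi1 -0.18, Aldoa -0.32, Gpi1 -0.32 and Cyc1 -0.29. Without background subtraction Cebpb was 0.17. In the Cy3 channel alone Anxa1 was -0.0821 and Cav1 -0.0636. With equalized ranges Pou5f1 was 0.0678 and Lgals1 -0.29. The cause was not tested for the other settings. The medians of the amino acid starvation and pluripotency lists were below 0 under all 21, from -0.77 to -0.21 and from -0.59 to -0.05. The Cy3 signal on the HP4 arrays limits genes low in ES cells.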
